A study of Mus musculus with 20 samples.

Results

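The 34 genes described here encode the chaperones, folding enzymes, degradation machinery and stress sensors of the endoplasmic reticulum (ER). They were taken by symbol from a table of 26440 genes, in which each has 1 row. A filter on low values, at least 10 in at least 3 libraries, was passed by 33 of them and by 18125 genes in all. Derl3 was the member that did not pass. The rule goes by symbol and uses no measured value, but the members were chosen with earlier results of these data known.

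The ER folds membrane and secreted proteins with the help of chaperones, lectins and disulfide isomerases. When unfolded proteins accumulate there, the sensors IRE1, PERK and ATF6 start the unfolded protein response, which slows translation and, through XBP1, ATF6 and ATF4, raises the transcription of chaperones and of the genes that send misfolded proteins to the proteasome. In heart muscle the same membrane system includes the sarcoplasmic calcium store, and several chaperones, calreticulin among them, bind calcium. Creld1, the gene deleted here, encodes an ER membrane protein, and its paralogue Creld2 encodes a soluble ER protein induced by stress.

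Gene expression was measured by RNA sequencing in 20 C57BL/6N libraries, each from the heart tissue of 1 animal. The groups were 4 whole hearts of embryos with a myocardial Creld1 deletion (KO) and 4 of wild-type (WT) littermates at E13.5 of gestation, 3 KO and 3 WT atria on day 3 after birth (P3), and 3 KO and 3 WT ventricles labelled as from the same 6 pups. The genotype label of the KO libraries, "MyHC-Creld1 KO", names a myosin heavy chain driver, without saying which one. Sex is not labelled, and heart cells other than cardiomyocytes keep Creld1. KO and WT libraries with the same replicate number came from 1 litter and were prepared on 1 date, and E13.5 replicates 2 and 3 shared a litter. Values are the deposited normalized signal, a linear scale, and differences are on the log2(signal + 1) scale with their standard errors (SE). Except in comparisons made within pups, the SE and p of the main fit rest on 1 spread per gene shared by all 6 groups. They do not measure the spread of the compared groups alone.

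The estimated depth was 5138353 to 20669358 counts per library, and 18357 to 23457 genes had a signal above 0. Mean log2 depth was higher in KO than in WT by 0.24 at E13.5, 0.65 in atria and 0.77 in ventricles. Exact permutation tests of these gave p = 0.51, 0.3 and 0.2. The mitochondrial genome took 19.5 to 22.4% of the signal in KO and 20.4 to 22.0% in WT E13.5 hearts. It took 36.3 to 37.3% in KO and 38.5 to 41.3% in WT ventricles. The part of depth and of this share in the members' differences was not tested. Tnnt2, the cardiac troponin T gene, was at 15992 to 39652 in KO and 16421 to 54464 in WT libraries. The chamber labels were borne out by Myl7, an atrial light chain, and Myl2, a ventricular one, except that the library labelled WT atria 2 held a Myl2 signal of 9242, against at most 97.2 in the other atria. That library and WT ventricles 2, labelled as the same pup, also went against each other in sex-linked transcripts. Xist was at 38.2, 3003, 33.0 and 35.9 in KO E13.5 1 to 4 and 2407, 17.8, 2369 and 2670 in WT. Y-linked signal ran the other way, so KO and WT differed in sex-linked transcripts in every E13.5 pair. The first atrial pair and the first and second ventricular pairs differed likewise. In these pairs genotype and sex cannot be told apart. Creld1 was at 4.64 to 70.9, 23.1 to 82.4 and 19.9 to 59.3 in the KO E13.5, atrial and ventricular libraries. In the WT libraries it was at 34.0 to 92.2, 21.6 to 146 and 59.7 to 129.6. Its log2 differences were -1.66 ± 0.76, -0.89 ± 0.88 and -0.97 ± 0.88, each with a limma adjusted p of 1, and which exons were removed is not given. In the first E13.5 pair, the second atrial pair and the second ventricular pair the KO library was above or level with its WT littermate, so that directions below rest on the labels.

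The third atrial pair, KO atria 3 and WT atria 3, stood apart from the other 4 atrial libraries. Canx, which encodes the lectin chaperone calnexin, had a signal of 14789.7, 13685 and 3566 in KO atria 1, 2 and 3 and 14658, 13776 and 2797 in WT atria 1, 2 and 3. Hsp90b1, Hyou1, Dnajb11 and Ssr1 were likewise lowest in the third library of each genotype. Pdia3, Calr, P4hb, Pdia6, Txndc5, Os9, Herpud1 and Xbp1 were highest there. Across 18097 genes the deviation from the atrial median correlated with the GC content of the longest transcript at 0.48 in KO atria 3 and 0.42 in WT atria 3, and at -0.23 to -0.16 in the other 4. Over the 33 members these 2 libraries gave 0.53 and 0.52 and the other 4 gave -0.48 to -0.014. Genes and members within a library share its RNA and depth, so the coefficients only describe these libraries. Brown adipocyte markers summed to 435 in WT atria 3, 91.6 in KO atria 3 and 20.4 to 39.7 in the other 4. Lymphocyte and plasma cell markers summed to 540, 370 and 81.3 to 267, and epicardial markers to 2987, 1696 and 874 to 1270. Endothelial, hepatocyte and nerve markers in WT atria 3 lay within the range of the other atria. The part of such cells in the members' values was not tested. Transcripts of the mitochondrial genome took 3.55% and 10.4% of the signal in KO atria 3 and WT atria 3. They took 22.6% and 24.2% in KO atria 1 and 2, and 31.3% in each of WT atria 1 and 2. Atrial values are therefore given with and without the third pair where it bears on them.

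**Figure D1:**
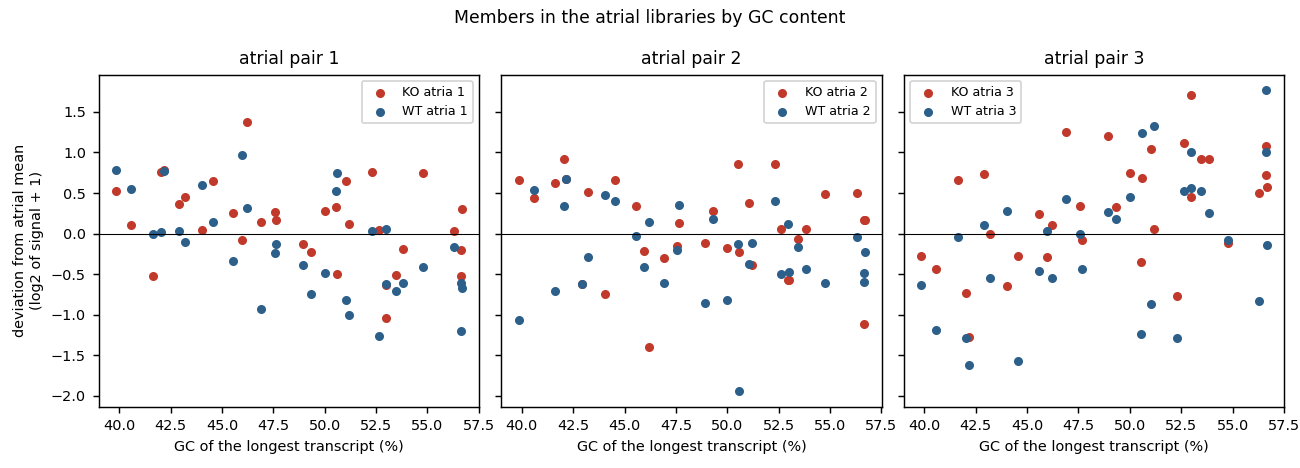
Deviation of each of the 33 members from its mean over the 6 atrial libraries (vertical axis, log2 of signal + 1) against the GC content of its longest transcript (horizontal axis, %), for KO and WT libraries of each pair. In the third pair members of high GC content tend to lie above the mean and those of low GC content below it, with correlations of 0.53 in KO and 0.52 in WT when deviations are taken from the atrial median.

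Stress-induced members of the family are known for the ER stress response element (ERSE), in which CCAAT and CCACG are set 9 bases apart, and for the shorter ERSE-II, ATTGG and CCACG with 1 base between. Both are sites for ATF6 and XBP1 together with NF-Y. RefSeq promoter windows of GRCm38.p6, from 250 bases before to 50 after the gene start, were found for 29 of the 34 members, the others being Manf, Hyou1, Hspa13, Derl1 and Atf6. A gene was counted when any of its windows held the element on either strand, and Derl2 and Txndc5 had more than 1 window. ERSE was present in 10 of the 29 members (34.5%) and in 37 of 27025 genes with a window (0.137%). ERSE-II was present in 2 of the 29, Herpud1 and, after the gene start, Dnajb11, and in 12 of all genes with a window (0.0444%). The core of the UPRE, TGACGTG, was in 2 of the 29, Hspa5 and 1 window of Txndc5, and in 2.22% of all genes with a window. The CCACG site alone, which both ERSE and ERSE-II contain and a UPRE can overlap, was in 25 of the 29 and in 35.5% of all genes with a window. A match in letters is a description and does not show that a factor binds there. The elements of the members whose levels the results below turn on are printed here with 20 bases on each side, on the strand of the gene, with the element in capitals:
Hspa5: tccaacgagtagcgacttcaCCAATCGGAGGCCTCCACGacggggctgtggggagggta
Hsp90b1, distal: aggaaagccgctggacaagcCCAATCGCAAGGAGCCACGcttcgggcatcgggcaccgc
Hsp90b1, proximal: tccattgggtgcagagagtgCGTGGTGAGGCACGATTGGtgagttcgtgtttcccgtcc
Creld2: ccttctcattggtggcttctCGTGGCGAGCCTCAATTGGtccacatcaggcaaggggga
Dnajc3: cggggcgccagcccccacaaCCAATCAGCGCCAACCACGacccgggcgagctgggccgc
Calr: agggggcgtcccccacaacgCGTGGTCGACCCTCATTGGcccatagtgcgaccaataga
Canx: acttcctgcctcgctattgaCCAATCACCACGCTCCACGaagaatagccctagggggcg
Pdia6: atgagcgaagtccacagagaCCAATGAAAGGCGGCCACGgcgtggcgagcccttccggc
Ero1lb: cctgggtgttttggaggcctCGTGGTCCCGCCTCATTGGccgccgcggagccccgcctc
Herpud1: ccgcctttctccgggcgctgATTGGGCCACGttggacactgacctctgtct
In Hspa5, Dnajc3, Canx, Pdia6 and the distal Hsp90b1 element CCAAT comes first, and in Creld2, Calr, Ero1lb and the proximal Hsp90b1 element the same letters run on the opposite strand, from CGTGG to ATTGG. The stretches lie at chr2:34772005-34772063 on the plus strand, chr10:86705618-86705676 and chr10:86705513-86705571 on the minus strand, chr15:88819500-88819558 and chr14:118937807-118937865 on the plus strand, and chr8:84847055-84847113 and chr11:50325780-50325838 on the minus strand. Those of Pdia6 (chr12:17266471-17266529), Ero1lb (chr13:12565662-12565720) and Herpud1 (chr8:94386357-94386407) lie on the plus strand. Syvn1 and Derl3 hold the remaining ERSE matches.

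**Figure D2:**
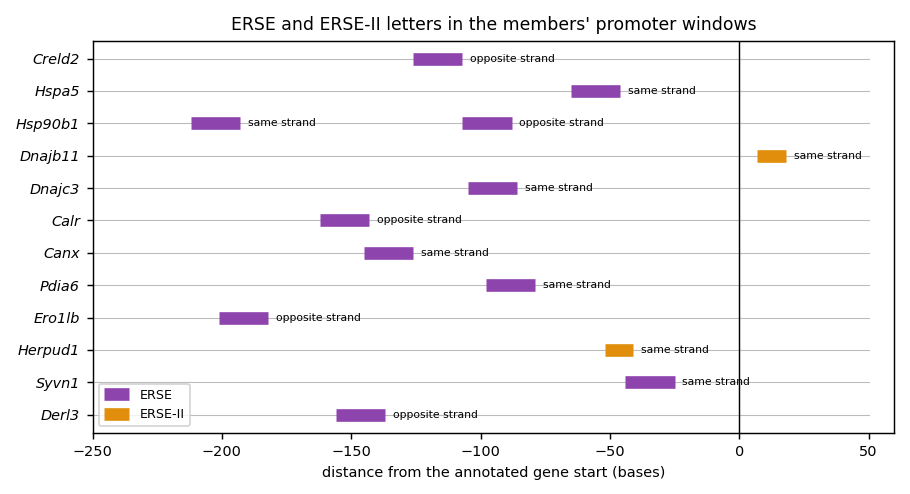
Position of each ERSE and ERSE-II match (bars) in the promoter windows of the 12 members that hold one, as distance from the RefSeq gene start in bases (horizontal axis), with the strand relative to the gene. All but the element of Dnajb11 lie before the start.

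In P3 atria most genes of the folding machinery had a higher mean log2 value in KO than in WT libraries, by up to 1.38 for Manf, while 3 of the 4 genes for sensors and their transcription factor Xbp1 had a lower one. No member was called by limma at a Benjamini-Hochberg adjusted p under 0.05 over all genes (0 of 33), against 0.0221% of all genes called higher and 0.00552% called lower. Of the 33 members tested, 27 were higher in KO, with a median log2 difference of 0.51, while 49.8% of all genes were higher and their median was 0. All 10 stress-induced chaperones and cochaperones had positive differences (median 0.62), as had 9 of 10 lectin chaperones, isomerases and oxidases (0.52), 5 of 7 degradation genes (0.14), both translocon genes (0.69) and 1 of the 4 sensor and transcription factor genes (-0.08). In 16 members the KO library was the higher one in each of the 3 pairs, and in 2 the lower one, against 15.1% and 16.1% of all genes. Without the third pair 26 of 33 were higher, with a median of 0.40, and without both libraries labelled WT pup 2 the median was 0.36. By limma's unadjusted p under 0.05, 6 members were higher and 1 was lower, and 534 and 430 of all genes. These counts moved with the fit. They were 11 and 1 members with the replicate block, 2 and 1 with Xist as a covariate, 1 and 0 with only the groups compared, 3 and 0 without both libraries labelled KO pup 2, and 4 to 9 higher when 1 library was left out.

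Manf, a small secreted protein that binds BiP and is released under ER stress, had the largest difference relative to its error. Its signal was 792, 653 and 1037 in KO atria and 285, 387 and 274 in WT atria, so that the lowest KO library lay above the highest WT library. The means were 827 ± 194 (SD, n = 3) in KO and 316 ± 62.3 (SD, n = 3) in WT, a log2 difference of 1.38 ± 0.29 (SE) with a 95% interval of 0.77 to 1.99, and limma gave an adjusted p of 0.164. With the replicate number as a block, since the numbers pair littermates, the SE was 0.25 and limma's adjusted p was 0.0447, so that Manf was called higher in KO. It was the single member called in that fit, in which 0.11% of all genes were called higher and 0.0552% lower. The call was lost without the third pair. There the difference was 1.11, with an adjusted p of 0.298 by limma and 0.274 with the block. With a correction for GC content the difference was 1.36 and limma's adjusted p with the block was 0.0828. Over 32 alternatives the difference was 1.11 to 1.54 and the adjusted p was 0.0447 to 1. Manf (chromosome 9, 106838312 to 106891979, minus strand, GRCm38) overlaps exons of Rbm15b on its own strand and of 4930524O07Rik and Dcaf1 on the other, and whether the counting used strand is not stated.

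Among the ATP-driven chaperones, Hspa5 (chromosome 2, 34771970 to 34777547, plus strand) encodes the ER Hsp70 BiP. It was at 6721, 7129 and 6666 in KO atria and 4450.2, 5547 and 4104 in WT atria. The KO libraries all lay above the WT libraries, with a difference of 0.55 ± 0.23 and a limma adjusted p of 0.859 (0.214 with the block). Hsp90b1 (chromosome 10, 86690209 to 86705509, minus strand), which encodes the ER Hsp90 GRP94 and shares exonic bases with Gm15344 and Gm25745, was at 11364, 12650.1 and 4036 in KO atria and 6779.7, 8466 and 2738 in WT atria. Both libraries of the third pair were low and the groups overlapped, and the KO library was the higher one in each pair. The difference was 0.63 ± 0.38 (limma adjusted p = 1, and 0.0975 with the block), and the SE with the block was 0.13. Its size turned on single libraries, being 0.14 without WT atria 3 and 1.15 without KO atria 3, and 0.33 without KO atria 2. Hyou1, the nucleotide exchange factor GRP170, followed the same pattern at 1166, 1253 and 405 in KO atria and 704, 912 and 283 in WT atria. Hspa13, a microsomal Hsp70-like protein, was at 221 to 423 in KO and 127 to 463 in WT, with overlapping groups.

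The cochaperones had positive log2 differences in KO atria as well, close to 0 for Dnajb9, and none was called. Dnajc3, whose product P58IPK restrains PERK and assists BiP, was at 1324, 1387 and 964 in KO atria and 901, 792 and 664 in WT atria, without overlap (0.63 ± 0.29, limma adjusted p = 0.911). Sdf2l1, which works with the cochaperone ERdj3, was at 205, 186 and 248 in KO atria and 104, 142 and 151 in WT atria, also without overlap. Dnajb11, which encodes ERdj3 itself, was at 781, 1126 and 487 in KO and 892, 565 and 263 in WT, with the WT library higher in the first pair. Dnajb9, an IRE1-binding cochaperone, differed by 0.06 at 412, 517 and 282 in KO and 561, 558 and 167 in WT, with the KO library lower in 2 of 3 pairs and the mean signal 403 in KO and 429 in WT. Creld2 (chromosome 15, 88819646 to 88826683, plus strand) was at 596, 499 and 328 in KO atria and 267, 232 and 336 in WT atria, with the third pair almost equal. Its difference was 0.74 ± 0.35 (limma adjusted p = 0.929), and without that pair it was 1.13.

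In the calnexin-calreticulin cycle and among the disulfide enzymes, Pdia3, the isomerase that pairs with both lectins, was at 2448, 1798 and 5257 in KO atria and 1159, 1452 and 2980.1 in WT atria. The KO library was the higher in every pair, with a difference of 0.73 ± 0.35 and a limma adjusted p of 0.936, although the third pair was high in both genotypes. Exons of Catsper2 lie on the opposite strand of Pdia3. Calr was at 1781, 1307 and 2485 in KO atria and 1057, 832 and 2018 in WT atria, a difference of 0.57 ± 0.32 (limma adjusted p = 0.997). Txndc5, a thioredoxin-domain isomerase, was at 846, 850.0 and 1779 in KO and 341, 579 and 1181 in WT, and Pdia6 was at 964, 973 and 2415 in KO and 804, 583 and 1268 in WT. P4hb, the classical protein disulfide isomerase, was at 991, 1182 and 2134 in KO and 741, 839 and 1349.6 in WT. Pdia4 and Pdia5 were higher in KO in each pair too, by 0.30 and 0.23 on average, while Canx differed by 0.12. The oxidases that recharge these enzymes differed in direction. Ero1lb was at 142, 81.6 and 87.5 in KO atria and 209, 192 and 168 in WT atria, lower in KO without overlap (-0.90 ± 0.41, limma adjusted p = 0.903), and Ero1l was at 147, 328 and 334 in KO and 210.1, 129.5 and 205 in WT.

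Both translocon genes had positive differences in KO atria. Sec61b, a subunit of the protein-conducting channel, was at 429, 599 and 598 in KO and 377, 409 and 236 in WT, without overlap (0.69 ± 0.32, limma adjusted p = 0.917). Ssr1, a subunit of the translocon-associated TRAP complex, was at 6719, 6767 and 3545 in KO and 4759.7, 5670.1 and 1445 in WT and higher in KO in each pair. Dnajc3, Ero1lb, Hspa5, Manf, Sdf2l1 and Sec61b were thus the 6 of 33 members whose KO and WT signals did not overlap, a description made after the values were seen, and 7.91% of all genes had no overlap. Without the third pair the differences of Dnajc3, Ero1lb, Hspa5, Sdf2l1 and Sec61b were 0.68, -0.89, 0.48, 0.68 and 0.37, those of Hsp90b1, Pdia3 and Calr were 0.66, 0.69 and 0.70, and none was called.

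Degradation genes and sensors showed no common direction in KO atria. Herpud1, a membrane protein of the degradation complex, was at 531, 554 and 1125 in KO atria and 854, 896 and 1218 in WT atria, lower in KO in each pair, with a mean difference of -0.50 ± 0.36. Xbp1 was at 189, 263 and 1285 in KO atria and 253, 283 and 789 in WT atria, a difference of 0.06 ± 0.60. The signal covers spliced and unspliced Xbp1 messenger RNA alike, so that it does not measure IRE1 activity. Atf6 differed by -0.39 ± 0.39, Eif2ak3, the PERK gene, by -0.14 ± 0.60 and Ern1, the IRE1 gene, by -0.03 ± 1.27, all with limma adjusted p-values of 1. Leaving out 1 library could turn the sign of 3 of these 4 genes, with ranges of -0.78 to 0.60 for Xbp1, -0.67 to 0.49 for Eif2ak3 and -1.01 to 0.58 for Ern1, and gave -0.70 to -0.0040 for Atf6. Ern1 had a signal of only 28.1 to 65.5 in KO and 9.70 to 96.3 in WT atria, which leaves its difference with an interval of -2.68 to 2.61. Edem1, Sel1l, Syvn1, Derl1, Derl2 and Os9 differed by 0.06, 0.14, 0.46, 0.25, 0.32 and -0.38.

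The KO atria differed from the WT atria in cell markers as well. The summed signal of 15 fibroblast markers was 77709 to 80113 in KO and 96268 to 100048 in WT atria, with 10 of 15 lower in KO and 1 of them called, or 3 with the replicate block. The sum of 10 mitosis genes was 5968 to 11152 in KO and 4241 to 6779 in WT, all 10 higher in KO and 1 of them called in either fit. Of 7 erythroid genes 6 were higher in KO, with sums of 31072 to 133068 in KO and 15591 to 18813 in WT, none called without the block and 3 called higher with it. The sum of 7 smooth muscle and pericyte genes was 5459.9 to 11573 in KO and 1676 to 6192 in WT, with 3 of 7 higher in KO and 1 called higher with the block. Atrial cardiomyocyte markers summed to 157498 to 445480 in KO and 81768 to 166354 in WT, 5 of 7 higher in KO and 1 called higher with the block. All 5 ventricular cardiomyocyte and all 6 epicardial markers had lower mean log2 values in KO atria, with no call in either fit. Ventricular markers summed to 4372, 2659 and 4283 in KO atria 1 to 3 and 3462, 18486 and 2628 in WT atria 1 to 3. WT atria 2, with its Myl2 signal, was the highest, and in the other pairs the KO sum was the higher one. Epicardial markers summed to 874 to 1696 in KO and 1098 to 2987 in WT. Irx4, a ventricular marker, was at 0 in all KO atria, no other marker of these lists was at 0 in a whole atrial group, and their part in the members' differences was not tested. In RNA from whole tissue, fewer cells of a type and less RNA per cell cannot be told apart.

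**Figure D3:**
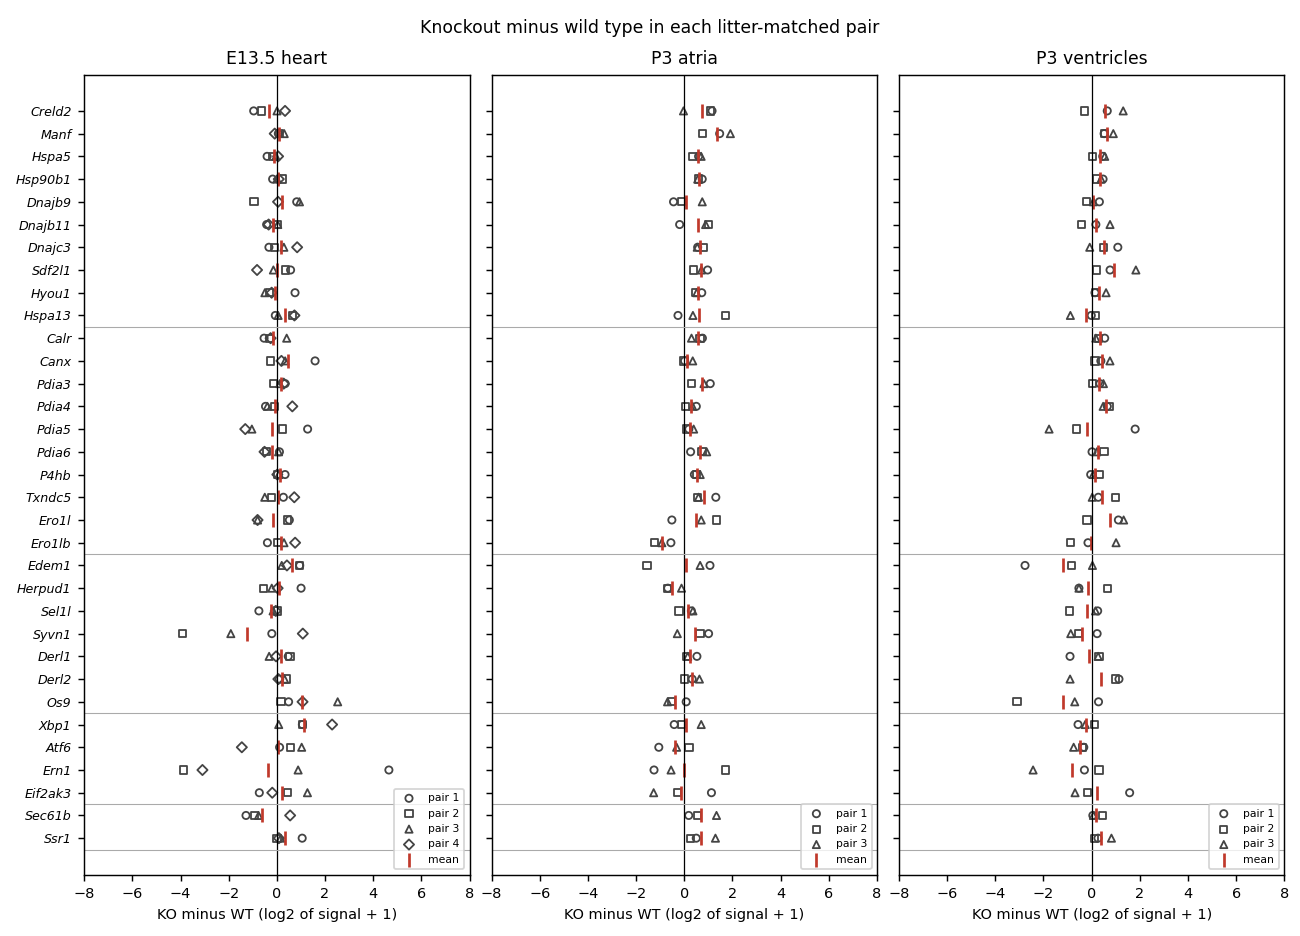
KO minus WT difference (horizontal axis, log2 of signal + 1) of each of the 33 members (rows, in blocks of stress-induced chaperones, lectins and disulfide enzymes, degradation, sensors and translocon from top to bottom), for each litter-matched pair (symbols) and on average (red bar). In P3 atria 27 means lie right of 0, in P3 ventricles 21 and in E13.5 hearts 19, and Ern1 and Syvn1, at low signal, scatter most at E13.5.

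In P3 ventricles most chaperones and folding enzymes again had higher mean log2 values in KO than in WT, by up to 0.94 for Sdf2l1, and most degradation genes and 3 of the 4 sensor and transcription factor genes had lower ones. No member was called, and no gene of the table was called in either direction (0% higher and 0% lower). By limma's unadjusted p under 0.05, 3 members were higher and none lower, and 361 and 346 of all genes. Over the alternatives 0 to 5 members were higher and 0 to 1 lower by that measure. The median difference was 0.24 with 21 of 33 positive, against 48.5% of all genes. Of the stress-induced group 9 of 10 were positive (median 0.35), of the lectins and disulfide enzymes 8 of 10 (0.31), of the degradation genes 1 of 7 (-0.17) and of the sensor and transcription factor genes 1 of 4 (-0.36). The KO library was the higher one in all 3 pairs for 13 members and the lower one for 1, Atf6, against 12.45% and 12.99% of all genes. Without both libraries labelled WT pup 2 the median was 0.15. These libraries are labelled as from the same pups as the atria, so that the tissues are not taken as independent.

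Sdf2l1 differed most relative to its error, at 114, 122 and 181 in KO ventricles and 66.8, 106 and 50.04 in WT ventricles. The groups did not overlap, and the difference was 0.94 ± 0.36 (limma adjusted p = 1). Pdia4, an isomerase of the BiP complex, was at 375, 511 and 436 in KO and 239, 309 and 313 in WT, again without overlap (0.62 ± 0.27). Manf was at 635, 405 and 522 in KO ventricles and 444, 280.0 and 279.6 in WT ventricles. Its difference was 0.65 ± 0.29, with KO higher in each pair and a limma adjusted p of 1. Hsp90b1 was at 9668, 8318 and 9312 in KO and 6966, 7199 and 7101 in WT, 3 WT libraries close together below all KO libraries (0.36 ± 0.38, limma adjusted p = 1). This SE and p take in the atria, where the third pair was low, and do not measure the ventricular spread. Hspa5 was at 5899, 4301 and 6727 in KO and 4289.9, 4235 and 4623 in WT, with KO ventricles 2 level with WT (0.34 ± 0.23). Calr was at 1285, 1057 and 1116 in KO and 883, 863 and 989 in WT, without overlap by a difference of 0.34 ± 0.32.

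Creld2 in ventricles was at 299.7, 210.2 and 465 in KO and 191, 257 and 187 in WT, higher in KO in 2 of 3 pairs (0.56 ± 0.35). Dnajc3 was at 758, 736 and 667 in KO and 357, 525 and 705 in WT (0.50 ± 0.29), and Ero1l was at 399, 179 and 343 in KO and 184, 204 and 136 in WT (0.75 ± 0.43), both with overlapping groups. Edem1, a lectin that hands glycoproteins to degradation, was at 20.6, 89.7 and 156 in KO and 146, 162 and 152 in WT. KO ventricles 1 was far below the rest, and the difference was -1.19 ± 0.65. Without that library it was -0.37, and without KO ventricles 3 it was -1.80. Atf6 was at 269, 246 and 305 in KO and 338, 321 and 513 in WT, lower in every KO library than in any WT library (-0.49 ± 0.39). Sec61b was at 288, 358 and 302 in KO and 278, 260.3 and 287 in WT, its lowest KO and highest WT libraries nearly equal. Xbp1, Ern1 and Eif2ak3 differed by -0.24 ± 0.60, -0.81 ± 1.27 and 0.24 ± 0.60. Atf6, Calr, Hsp90b1, Pdia4, Sdf2l1 and Sec61b were the 6 of 33 members without overlap, again listed after the values were seen, and 10.5% of all genes had none. The members not named here ran between -1.17 for Os9 and 0.43 for Txndc5. Erythroid genes were higher in KO ventricles for 7 of 7, with sums of 17647 to 30958 in KO and 10357 to 25485 in WT. Atrial cardiomyocyte markers summed to 6872 to 35047 in KO and 3514 to 9429 in WT, 4 of 7 higher in KO and 1 called higher with the block, and Nppa, the atrial natriuretic peptide gene, differed by 2.70 ± 0.76. The smooth muscle gene Cnn1 differed by 3.77 ± 0.96 and the macrophage gene Cd68 by 3.31 ± 1.14, neither called. Other genes of these lists went the other way, Rgs5, Abcc9 and Kcnj8 in the first and Cx3cr1, Adgre1 and C1qb in the second. Smooth muscle and pericyte genes summed to 4907 to 7184 in KO and 5237 to 5343 in WT. Macrophage genes summed to 699 to 802 in KO and 628 to 754 in WT, so that both lists overlapped. Of the endothelial markers 6 of 8 were lower in KO, with sums of 3306 to 3965 in KO and 3915 to 4566 in WT. The part of these cells in the members' differences was not tested.

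**Figure D4:**
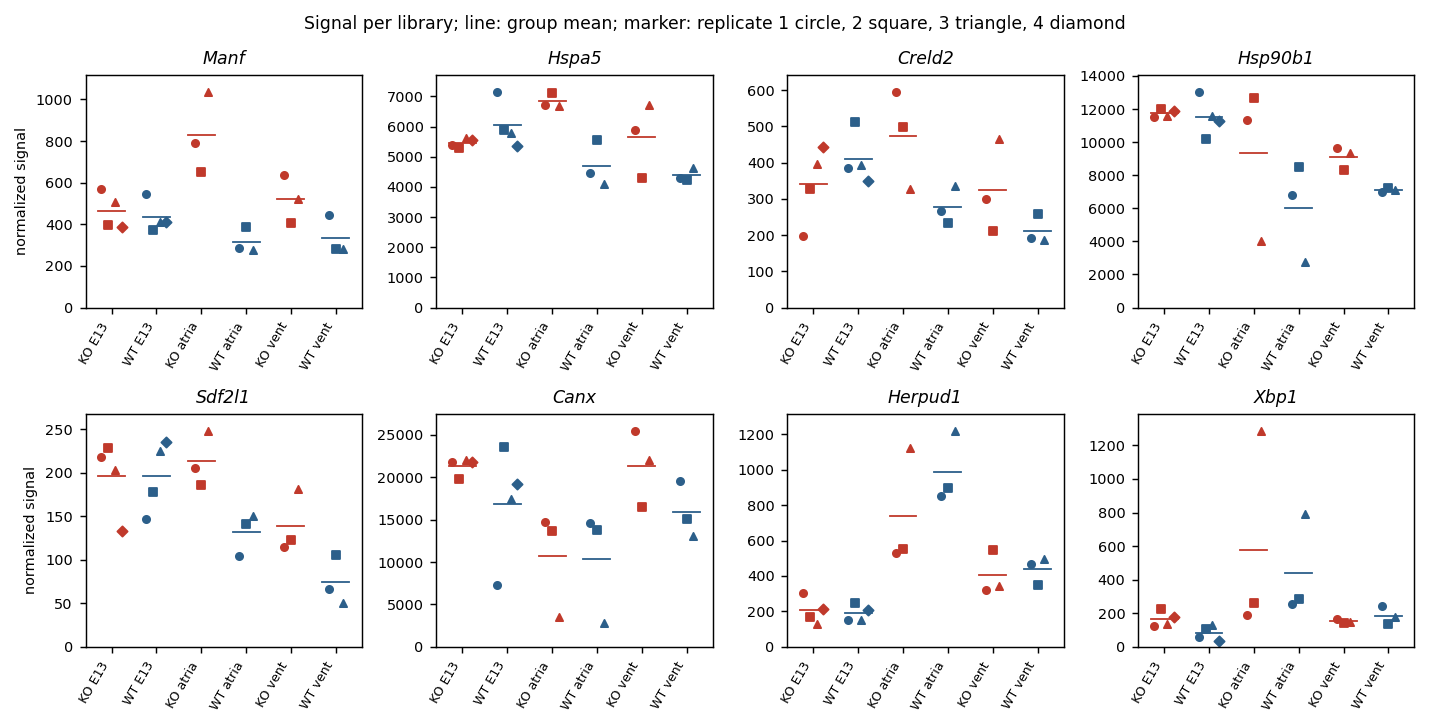
Normalized signal (vertical axis, from 0) of 8 members in each library (points, by replicate) of the KO (red) and WT (blue) groups, with group means (lines). In atria the KO points of Manf, Hspa5 and Sdf2l1 lie above all WT points, and Canx and Hsp90b1 show the low values of the third pair in both genotypes.

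At E13.5 the members' differences between genotypes lay on both sides of 0, from -1.24 for Syvn1 to 1.12 for Xbp1. The Syvn1 value rested on KO E13.5 2, where the signal was 0.996, and was -0.39 without that library, and leaving out 1 library gave 0.77 to 1.39 for Xbp1. No member and no gene of the table was called (0% higher and 0% lower), and by limma's unadjusted p under 0.05 there were 1 member higher and 1 lower, and 433 and 314 of all genes. The median difference was 0.07, with 19 of 33 positive and 50.9% of all genes. No member had groups without overlap, against 2.54% of all genes, and 6 had the KO library higher in all 4 pairs, Derl2, Edem1, Os9, P4hb, Ssr1 and Xbp1, against 5.61% of all genes. Xbp1 was at 126, 228, 137 and 175 in KO hearts and 59.8, 109, 130.3 and 35.0 in WT hearts, higher in KO in each of 4 pairs (1.12 ± 0.52, limma adjusted p = 1). Sec61b was at 329.6, 283, 383 and 577 in KO and 802, 535, 650.0 and 394 in WT, lower in 3 of 4 pairs (-0.60 ± 0.28). Os9, a lectin of the degradation complex, was at 15.9, 40.2, 29.8 and 35.3 in KO and 11.1, 35.5, 4.36 and 16.4 in WT (1.06 ± 0.75).

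Of the chaperones, those with the higher means in KO atria gave small differences at this stage. Hspa5 was at 5398, 5288, 5617 and 5548 in KO hearts and 7154, 5895, 5774 and 5356 in WT hearts (-0.14 ± 0.20). Manf was at 569, 398, 507 and 387 in KO and 546, 371, 411 and 412 in WT (0.09 ± 0.25, 95% interval -0.43 to 0.62). Hsp90b1 was at 11539, 12001, 11608 and 11898 in KO and 13042, 10164, 11567 and 11272 in WT, a difference of 0.04 ± 0.33 with every library between 10164 and 13042. Its SE here takes in the P3 libraries as well. Creld2 was at 197, 327, 395 and 443 in KO and 386, 512, 393 and 350.0 in WT (-0.32 ± 0.30), its lowest value in KO E13.5 1. Calr differed by -0.17 ± 0.28, Atf6 by 0.06 ± 0.34 and Eif2ak3 by 0.20 ± 0.52. Ern1, at 108, 0, 9.08 and 2.5 in KO and 3.33, 13.7, 4.47 and 28.8 in WT, had a difference of -0.36 ± 1.10, with an interval of -2.65 to 1.93. Syvn1, the ubiquitin ligase of the degradation complex, was at 24.3, 0.996, 11.1 and 30.3 in KO and 28.3, 29.2, 44.7 and 13.8 in WT (-1.24 ± 0.73), and Edem1 at 172, 231, 87.2 and 99.7 in KO and 88.6, 121, 75.7 and 74.4 in WT (0.62 ± 0.56). Canx was low in WT E13.5 1, at 7276 against 17399 to 23639 in the other WT hearts, and at 19753 to 22066 in KO hearts.

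The change of the genotype effect between tissues was tested directly, and no member was called. For atria minus E13.5, in which the stage and the dissection cannot be told apart, 0.00552% of all genes were called higher and 0% lower, and the members' median was 0.41 with 24 of 33 positive. By unadjusted p under 0.05, 4 members were higher and 0 lower. For the positive members and for these, the share over all genes is not given here, so the counts describe the members only. Manf had a difference of effects of 1.29 ± 0.39 (limma adjusted p = 0.738), Sec61b of 1.29 ± 0.42, Hspa5 of 0.69 ± 0.30, Creld2 of 1.06 ± 0.46, Calr of 0.74 ± 0.43 and Hsp90b1 of 0.59 ± 0.50. Xbp1, Atf6, Eif2ak3 and Ern1 gave -1.06, -0.45, -0.34 and 0.33. For ventricles minus atria, tested within pups, 0% of all genes were called in either direction, the members' median was -0.28, and 0 members were higher and 0 lower by unadjusted p. Manf gave -0.73 ± 0.47, Hspa5 -0.21 ± 0.47, Hsp90b1 -0.27 ± 0.69, Creld2 -0.18 ± 0.59, Calr -0.23 ± 0.47, Xbp1 -0.30 ± 0.85, Atf6 -0.09 ± 0.52, Ern1 -0.78 ± 1.21 and Eif2ak3 0.37 ± 0.89. The atrial effect is therefore not shown to differ from that of the other tissues.

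Between the WT P3 chambers and the WT E13.5 heart, Herpud1, Xbp1 and Atf6 rose in atria, Herpud1 rose in ventricles, and Pdia4, Sdf2l1 and Sec61b fell in ventricles. Both comparisons use the same 4 WT hearts. They set single chambers against whole hearts of other litters, so that stage, dissection and litter cannot be told apart. In WT atria 3 members were called higher and none lower, against 3.11% and 2.39% of all genes. In WT ventricles 1 was called higher and 3 lower, against 3.35% and 1.74%. Members' medians were -0.0012 in atria and -0.34 in ventricles. Atf6 and Xbp1 were the 2 called in atria of the 4 sensor and transcription factor genes, of which none was called in ventricles. All 4 differences were positive in both chambers, against 53.9% of all genes in atria and 50.003% in ventricles, with medians of 1.80 in atria and 1.07 in ventricles, although that of Eif2ak3 in ventricles was 0.01 ± 0.56 and ran from -0.35 to 0.29 when 1 library was left out. Of the stress-induced chaperones 8 of 10 had negative differences in each (-0.50 and -0.37).

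Herpud1 rose in both chambers. It was at 854, 896 and 1218 in WT atria and 467, 349 and 498 in WT ventricles, against 152, 249, 153 and 209.8 in WT E13.5 hearts, so that every P3 library lay above every E13.5 library. The differences were 2.38 ± 0.34 in atria (limma adjusted p = 0.00021) and 1.21 ± 0.34 in ventricles (0.0383). The atrial call held in all 28 alternative fits, and the ventricular one in 19 of 28, being lost with no filter, with upper-quartile scaling, without the libraries labelled WT pup 2 and without any 1 of the 3 WT ventricles or of WT hearts 1, 3 and 4. Xbp1 rose in WT atria, at 253, 283 and 789 against 59.8, 109, 130.3 and 35.0 in WT hearts (2.36 ± 0.56, limma adjusted p = 0.0146). WT atria 3 was the highest library. Without the third atrial pair the difference was 1.84 with an adjusted p of 0.0184, and without WT atria 3 alone the adjusted p was 0.0996. The call was also lost when the WT groups compared were fitted alone. Atf6 rose in WT atria as well, at 1050.0, 400.2 and 546 against 231, 181, 151 and 298 in WT hearts (1.55 ± 0.37, limma adjusted p = 0.0151). That call was lost without WT atria 1, the highest library, or without WT heart 3, or with the WT groups compared fitted alone. In WT ventricles Xbp1 and Atf6 differed by 1.26 ± 0.56 and 0.87 ± 0.37 (limma adjusted p = 0.237 and 0.21).

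The 3 members that fell in WT ventricles belong to folding and import. Pdia4 was at 239, 309 and 313 in WT ventricles, against 706, 689, 906 and 549.7 in WT hearts, without overlap (-1.30 ± 0.25, limma adjusted p = 0.00296), and was called in all 28 alternatives. Sdf2l1 was at 66.8, 106 and 50.04 in WT ventricles, against 147, 178, 225 and 235 in WT hearts (-1.44 ± 0.34, 0.0135). Its call was lost without WT ventricles 1 or 3 or with the groups compared fitted alone. Sec61b was at 278, 260.3 and 287 in WT ventricles, against 802, 535, 650.0 and 394 in WT hearts (-1.06 ± 0.30, 0.041), a call made in 15 of 28 alternatives and lost without any 1 of the WT ventricles, of WT hearts 1, 2 and 3, of KO heart 3 or of KO ventricles 1, among others. In the WT atria these genes differed by -0.30, -0.56 and -0.79. Hspa5 differed by -0.37 ± 0.21 in WT atria and -0.46 ± 0.21 in WT ventricles, Hsp90b1 by -1.09 ± 0.36 and -0.69 ± 0.36, Creld2 by -0.56 ± 0.33 and -0.95 ± 0.33, Manf by -0.46 ± 0.27 and -0.40 ± 0.27, and Calr by -0.18 ± 0.30 and -0.59 ± 0.30, none of them called. In WT atria, where limma gave Hsp90b1 an adjusted p of 0.0801, it was called lower in 5 of 28 alternatives. These were the one without the third pair, at -0.60 (adjusted p = 0.0099), the GC correction, at -1.12 (0.0377), those without WT pup 2 or WT atria 2, at -1.41, and the one without KO atria 3. In WT ventricles it was called lower in 2 of 28, without the third atrial pair (0.0006) and with only the groups compared (0.0177), at an equal difference, and Creld2 in 1, with only the groups compared (0.0472). Of the other members, Os9 gained a call in WT atria in 4 of 28 alternatives, and Pdia6 and Pdia3 in WT ventricles in 4 and 2. Ern1 differed by 2.05 ± 1.19 in atria and 1.77 ± 1.19 in ventricles, and Eif2ak3 by 0.30 ± 0.56 in atria.

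Cell markers moved with stage in the WT libraries. Mitosis genes summed to 4241 to 6779 in WT atria and 6410.2 to 9546 in WT ventricles, against 13229.5 to 13655 in WT hearts, with 5 and 2 of 10 called lower. Fibroblast markers summed to 96268 to 100048 in WT atria and 62169.5 to 65897 in WT ventricles, against 33834 to 37284 in WT hearts, with 9 and 6 of 15 called higher. Erythroid genes summed to 15591 to 18813 in WT atria and 10357 to 25485 in WT ventricles, against 58116 to 221030 in WT hearts, with 4 of 7 called lower in each. Of 7 cardiomyocyte markers 3 were called higher in atria and 5 in ventricles, where 3 of 8 endothelial markers were called higher too. All 5 ventricular cardiomyocyte markers were called lower in atria, and of 7 atrial ones 5 were called higher in atria and 5 lower in ventricles. The part of these markers in the members' differences was not tested.

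In the KO libraries Herpud1 rose in atria, and it was the single member called with stage. As in the WT libraries, stage, dissection and litter cannot be told apart. KO atria had 1 member called higher and none lower, against 1.95% and 0.855% of all genes, and KO ventricles had none, against 1.79% and 0.954%. Herpud1 was at 531, 554 and 1125 in KO atria and 323, 546 and 346 in KO ventricles, against 307, 170.3, 131 and 214 in KO hearts (1.81 ± 0.34, limma adjusted p = 0.00324, and 1.00 ± 0.34, 0.126). The atrial call was lost in 1 of 28 alternatives, that with the groups compared fitted alone. The members' medians were 0.39 in KO atria and -0.10 in KO ventricles. Manf differed by 0.82 ± 0.27 and 0.16 ± 0.27, Hspa5 by 0.32 ± 0.21 and 0.02 ± 0.21, Hsp90b1 by -0.50 ± 0.36 and -0.37 ± 0.36, Creld2 by 0.50 ± 0.33 and -0.08 ± 0.33, and Calr by 0.56 ± 0.30 and -0.08 ± 0.30. Xbp1 and Atf6 differed by 1.30 ± 0.56 and 1.10 ± 0.37 in KO atria and by -0.10 ± 0.56 and 0.33 ± 0.37 in KO ventricles. Ern1 and Eif2ak3 gave 2.37 and -0.04 in atria and 1.32 and 0.05 in ventricles. Dnajc3 gained a call in KO atria in 8 of 28 alternatives, its difference being 0.99 with an adjusted p of 0.055 in the fit of all libraries, and Herpud1 one in KO ventricles without the third atrial pair. Of 15 fibroblast markers 4 were called higher and 1 lower in KO atria and 3 higher in KO ventricles, and 1 erythroid gene of 7 was called lower in each, and their part was not tested.

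**Figure D5:**
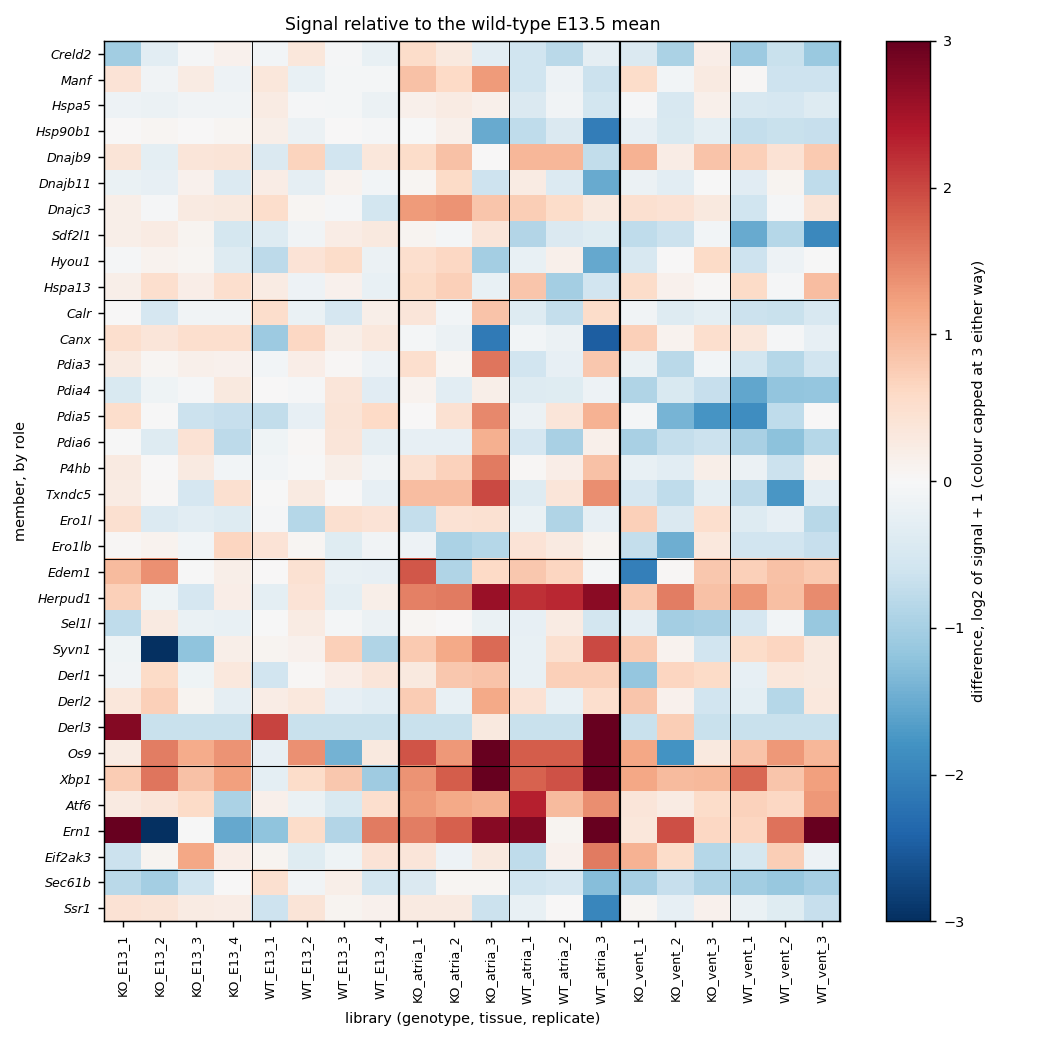
Signal of all 34 members (rows, in blocks by role) in each library (columns, KO before WT in each tissue) relative to the WT E13.5 mean (colour, log2 of signal + 1, capped at 3 either way). Herpud1, Xbp1 and Atf6 lie above that mean in all atria, and the third atrial pair is low in Canx and Hsp90b1 and high in Txndc5 and Os9.

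Between chambers labelled as the same pup, most members had lower mean log2 values in ventricles than in atria, and none was called. The libraries labelled WT pup 2, which went against each other in sex-linked transcripts, enter as 1 pup. In WT pups 0% of all genes were called higher and 0.0883% lower in ventricles, and in KO pups 0.0772% and 0.121%. By unadjusted p under 0.05, 0 members were higher and 9 lower in ventricles of KO pups, and 0 and 3 in WT pups. In KO pups 25 of 33 members were lower in ventricles (median -0.66) and in WT pups 24 (-0.39). The matching counts and medians over all genes are not given here, so these values do not set the members apart from other genes. The WT median was -0.50 without the libraries labelled WT pup 2, -0.30 without the third pup of each genotype and -0.14 with GC correction. Txndc5 was at 315, 264 and 366 in KO ventricles and 846, 850.0 and 1779 in KO atria, without overlap (-1.80 ± 0.39, limma adjusted p = 0.173), and it was called lower, with an adjusted p of 0.0374, in the fit of all 20 libraries without the pup as a block. It was at 259.7, 133 and 359.7 in WT ventricles and 341, 579 and 1181 in WT atria (-1.41 ± 0.39, 0.286). Exons of Bmp6 and Gm31834 lie on its opposite strand. Hspa5 differed by -0.30 ± 0.33 in KO and -0.09 ± 0.33 in WT pups, Manf by -0.66 ± 0.33 and 0.07 ± 0.33, Creld2 by -0.58 ± 0.42 and -0.39 ± 0.42, Calr by -0.64 ± 0.33 and -0.41 ± 0.33, and Hsp90b1 by 0.12 ± 0.49 and 0.39 ± 0.49. Xbp1 differed by -1.40 ± 0.60 and -1.10 ± 0.60, Atf6 by -0.77 ± 0.37 and -0.68 ± 0.37, Ern1 by -1.05 ± 0.85 and -0.27 ± 0.85, and Eif2ak3 by 0.09 ± 0.63 and -0.29 ± 0.63. Pdia4 and Herpud1 differed by -0.99 ± 0.31 and -1.17 ± 0.37 in WT pups. Fibroblast markers summed to 64113 to 79054 in KO ventricles and 77709 to 80113 in KO atria, and to 62169.5 to 65897 in WT ventricles and 96268 to 100048 in WT atria, and their part was not tested.

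Members with an ERSE or ERSE-II in the window and members without one were set side by side, with no test. In KO against WT atria the 11 tested members with an element had a median difference of 0.56, with 9 higher in KO, and the 17 with a window but no element had 0.30, with 14 higher. In ventricles the medians were 0.34 and 0.19, and at E13.5 they were -0.14 and 0.11.

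The wider pathway was read from 4 further lists of 37, 21, 19 and 31 genes, the first of which holds Creld1. Like the members, these lists were chosen with earlier results of these data known. None of these genes was called between genotypes in atria, ventricles or E13.5 hearts. Of 30 tested genes for the translocon and N-glycosylation 27 were higher in KO atria (median 0.41), among them Sec11c, a signal peptidase subunit (1.02 ± 0.38), the oligosaccharyltransferase gene Ostc (0.74 ± 0.30) and the channel subunit Sec61g (0.96 ± 0.40). Of 35 other chaperones and folding enzymes 23 were higher (median 0.21), led by Txndc12 (0.89 ± 0.30) and Erp29 (0.71 ± 0.28). Cdnf, the paralogue of Manf, was lower (-2.37 ± 0.84). Other degradation genes were split 10 to 8 and other signalling genes 9 to 8, with medians of 0.04 and 0.04, and Atf4, the transcription factor downstream of PERK, had 0.61 ± 0.30. Limma's adjusted p-values for these named genes were 0.69 for Txndc12, 0.731 for Cdnf, 0.756 for Sec11c and above those for the others. In KO ventricles 28 of 35, 11 of 18, 7 of 17 and 20 of 30 of the chaperone, degradation, signalling and translocon genes were higher, and in KO E13.5 hearts 19, 11, 7 and 14. With stage, Creb3l2, a membrane-bound transcription factor of secretory cells, rose in atria of both genotypes (1.66 ± 0.34 in KO, adjusted p = 0.00754, and 1.35 ± 0.34 in WT, 0.0214). In WT libraries Cdnf rose in atria (3.10 ± 0.78) and ventricles (2.95 ± 0.78), and the oligosaccharyltransferase subunit Tusc3 (-1.30 ± 0.35) and Ubxn4 (-0.90 ± 0.26), a cofactor of the degradation ATPase, fell in atria. In KO libraries Fkbp11 (2.29 ± 0.59), a prolyl isomerase of secretory cells, rose in atria.

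The members of lowest signal were Derl3, Ern1, Syvn1, Os9, Eif2ak3 and Pdia5. Derl3, a derlin best known from secretory cells, was at 9.70, 0, 0 and 0 in KO E13.5 hearts and 5.49, 0, 0 and 0 in WT E13.5 hearts, and its highest P3 value was 15.9, in WT atria 3. It was left untested. Pdia5 was at 26.1 to 249 in KO libraries and 24.5 to 189.9 in WT libraries, Eif2ak3 at 39.2 to 160.1 and 41.5 to 213, and Os9 at 3.12 to 160.1 and 4.36 to 259.6, with both of the highest Os9 values in the third atrial pair. Syvn1 was at 0.996 to 89.1 in KO and 13.8 to 109 in WT libraries, and Ern1 at 0 to 108 and 3.33 to 96.3.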

How the data were processed

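RNA from frozen tissue (RNeasy Micro) was made into SMART-Seq2 libraries, per the labels' protocols. Per the submitters' processing notes, STAR 2.5.1, bcl2fastq 2.2 and DESeq2 were used, with the mm10 build. The deposited values are a normalized signal per gene made by the authors, linear and with a method not given in the sources used here. Low values were whole multiples of the value of 1 read for 99.7 to 99.8% of small gene types (tolerance 0.001 reads) and for 45.1 to 64.6% of all genes, so no count test was run. The depth stated is therefore an estimate. PCR reads carry no molecular identifiers.

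Log2(signal + 1) was tested with limma 3.58.1 in R 4.3.3 (mean-variance trend) in 1 fit of 6 groups and 20 libraries, with 18125 genes at 10 or more in at least 3 libraries and Benjamini-Hochberg adjustment over all of them. Chambers were compared within pups as labelled (12 P3 libraries). The test was checked on simulated data with independent noise in each library. The simulation held no shifts by litter, sex or GC content, so the check does not cover these. Replicate numbers mark a shared litter and preparation date, per the labels, and so pair the samples. Deviations of same-numbered libraries correlated at -0.0159 to 0.0159 at E13.5, 0.212 to 0.638 in atria and 0.0200 to 0.0658 in ventricles. Differently numbered KO and WT libraries gave -0.031 to 0.0248, -0.411 to 0.225 and -0.0617 to 0.0280. The ranges overlap in each tissue, and 0.638 is that of the third atrial pair, so the pairing rests on the labels alone. The fourth E13.5 pair dates from 2018, the other E13.5 pairs from 2016. Fibroblast, mitosis, erythroid and other markers and the wider pathway lists, like the members, were chosen with earlier results of these data known. Genes were named by rule: Creld2, Manf, Hspa5, Hsp90b1, Calr, Xbp1, Atf6, Ern1 and Eif2ak3 throughout, plus called members and, between genotypes, the 6 of smallest p. Gene positions are from GENCODE on GRCm38. GC content is that of the longest transcript, and its correction subtracts a lowess fit of each library's deviation. The third-pair and GC alternatives were chosen after seeing the data. Alternatives were a pseudocount of 10, no filter, upper-quartile scaling, only the groups compared, Xist as a covariate, the replicate block and leaving out libraries.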

Additional observations from a re-analysis of the deposited data

Results flagged for a closer look

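In groups of 4 libraries, 4 of 66 member values tested for an outlying library stood far from the other 3 of their group, where chance flags about 1 in 20 groups. In E13.5 KO hearts, Canx was at 19753.1 in KO E13.5 2, against 21841.5 to 22065.6 in the other 3. Dnajb9 was at 230.554 in the same library, against 360.6 to 369.1. Ern1 was at 107.794 in KO E13.5 1, against 0 to 9.08. Ero1l was at 340.404 in KO E13.5 1, against 182.5 to 193.4. No member moved in opposite directions in all pairs of 2 tissues or had a called difference of genotype effects.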

How the results depend on the processing

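No direction of a called result turned round under any alternative. For named members 2935 values were counted as the same, 44 moved, 9 gained a call and 31 lost one. For a called member the same means that the call was kept. For an uncalled one it means a difference within 1 SE of the main fit, whatever its sign. Uncalled differences could therefore change sign, as that of Ern1 in KO minus WT atria did, at -1.0103 to 0.5816 when 1 library was left out. The replicate block, which pairs littermates, gave 1 member called higher in KO atria (Manf) and no member in the other genotype comparisons. Without the libraries labelled WT pup 2 the members' median was 0.3577 for KO minus WT atria, 0.1474 for KO minus WT ventricles, 0.1279 for WT atria minus E13.5 and -0.4987 for WT ventricles minus atria, with 1 member called lower in WT atria against E13.5 and 0 called higher in WT ventricles against E13.5. With no filter the WT atria minus E13.5 median was 0.1172 and 0 members were called higher in WT ventricles against E13.5, as with upper-quartile scaling. With only the groups compared, 1 was called higher in WT atria, 5 lower in WT ventricles and 0 higher in KO atria against E13.5. Without the third atrial pair, 1 was called lower in WT atria, 6 lower in WT ventricles, 2 higher in KO atria and 1 higher in KO ventricles against E13.5, and the KO ventricles minus atria median was -0.5603. With GC correction, 1 was called lower in WT atria and 2 higher in KO atria against E13.5, and the ventricles minus atria medians were -0.4747 in KO and -0.1376 in WT. Pseudocount 10 gave 2 higher in KO atria against E13.5. With no replicate block 1 was called lower in KO ventricles against atria. Without the libraries labelled KO pup 2 the ventricles minus atria difference of effects had a median of -0.1588. By unadjusted p under 0.05 the members higher and lower ranged over the alternatives from 1 to 11 and 0 to 1 in KO minus WT atria, 0 to 5 and 0 to 1 in ventricles, 0 to 1 and 0 to 2 at E13.5, and 3 to 8 and 0 to 1 in the atria minus E13.5 difference of effects. Those lower in ventricles than in atria ranged from 3 to 13 in KO and 1 to 7 in WT pups. The causes were not tested.

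Leaving out 1 library or pup at a time gave medians of 0.0053 to 0.0812 at E13.5, 0.2933 to 0.5302 in atria and 0.1474 to 0.3057 in ventricles for KO minus WT. Against E13.5 they were 0.3314 to 0.5651 in KO atria, -0.2211 to -0.0598 in KO ventricles and -0.0554 to 0.1279 in WT atria. For ventricles minus atria they were -0.7133 to -0.5603 in KO and -0.4987 to -0.3029 in WT. The differences of effects gave 0.2912 to 0.5296 for atria minus E13.5 and -0.3103 to -0.1588 for ventricles minus atria. Members called against E13.5 numbered 0 to 1 lower in WT atria, 0 to 1 higher and 1 to 4 lower in WT ventricles, and 1 to 2 higher in KO atria. With 3 or 4 libraries a group, the SE of a genotype difference reached 1.27 for Ern1, a member of low signal.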
